A study of Mus musculus with 6 samples.

Results

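The genes described here are 10 glycolytic enzyme isoforms, namely the hexokinases Hk1 and Hk2, the phosphofructokinases Pfkl, Pfkm and Pfkp, the aldolases Aldoa and Aldoc, the pyruvate kinase Pkm, and the lactate dehydrogenases Ldha and Ldhb. They were taken by symbol from a table of 55481 rows, using the row with the highest mean where a symbol was repeated, and all 10 were found. The table holds bulk RNA sequencing values, as TPM (transcript levels per length, scaled to a total of 1000000 in each library), for cells of mouse skin squamous cell carcinomas induced by DMBA, a carcinogen, and TPA, a tumour promoter. Cells with high Itga6 and CD80, called tumour stem-like by the submitters, were compared with cells of low Itga6 without CD80, called differentiated, at 2 libraries a group. The labels give no strain, age, number of animals or further gate, and do not state whether the replicates are different animals. The p-values thus reflect the spread among these 4 libraries alone, which may be technical. Cells with high Itga6 that lacked CD80 were not analysed here.

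Glycolysis splits glucose into pyruvate in the cytosol, and several of its steps are run by alternative enzymes from separate genes. Hexokinase traps glucose in the cell, phosphofructokinase makes the committed step, aldolase splits the sugar, pyruvate kinase forms pyruvate, and lactate dehydrogenase turns pyruvate into lactate. Hk1 is the hexokinase of most tissues and Hk2 an inducible one that is raised in many tumours. Pfkl, Pfkm and Pfkp are named for liver, muscle and platelet, although many tissues make more than 1 of them and the subunits form mixed tetramers. Aldoa is the widespread and muscle aldolase and Aldoc the brain form, while Ldha favours lactate formation and Ldhb is abundant in heart.

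The libraries differed in composition in a way that touches every level below. Haemoglobin genes held 0.0185% and 0.00621% of TPM in the Itga6hi CD80pos libraries but 70.9% and 50.4% in the Itga6low CD80neg libraries, and this large fraction lowers the TPM of all other genes there. Of 13474 genes tested, 57.0% were called higher in Itga6hi CD80pos and 9.48% lower (limma, adjusted p under 0.05), and the median log2 fold change was 1.27. Levels are therefore given as deposited and, where it matters, rescaled without haemoglobin genes. A ratio of TPM within a library does not depend on that total, but it is a ratio over all cells of the library. The tested differences of log2(TPM + 1) depend on the total for low genes, and they were fitted under the other scalings too. Fibroblast markers also set the Itga6low CD80neg cells apart, since 7 of 7 were lower in Itga6hi CD80pos, with a summed TPM of 8.41 and 9.08 against 8586 and 5274. Of 7 keratinocyte markers 6 were higher in Itga6hi CD80pos, with sums of 46334 and 46681 TPM versus 2000.2 and 5691 TPM, so keratinocyte RNA was present in both groups, while red cell and fibroblast RNA in the Itga6low CD80neg libraries went beyond their description as differentiated cancer cells. In bulk samples, fewer cells of a type and less RNA per cell cannot be told apart.

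The promoters of the phosphofructokinase and lactate dehydrogenase genes are shown because the TPM ratios of these isoforms did not overlap between the groups. Each is the 250 bases before the most upstream RefSeq start of the gene (GRCm38.p6), written 5′ to 3′ on the gene's strand. Capitals mark the letters ACGTG or GCGTG on either strand, the core of the element that hypoxia-inducible factors bind. It overlaps the E-box CACGTG, which reads as a match on both strands.
Pfkl: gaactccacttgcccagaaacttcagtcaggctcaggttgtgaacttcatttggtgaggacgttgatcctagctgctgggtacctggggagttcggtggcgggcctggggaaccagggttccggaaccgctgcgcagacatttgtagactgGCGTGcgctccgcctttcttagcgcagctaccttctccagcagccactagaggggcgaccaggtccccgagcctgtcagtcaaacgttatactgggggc
Pfkm: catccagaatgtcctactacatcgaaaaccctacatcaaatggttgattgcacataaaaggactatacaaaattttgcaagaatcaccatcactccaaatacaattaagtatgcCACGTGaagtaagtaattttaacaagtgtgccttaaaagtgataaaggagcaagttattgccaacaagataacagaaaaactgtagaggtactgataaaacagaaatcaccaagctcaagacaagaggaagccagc
Pfkp: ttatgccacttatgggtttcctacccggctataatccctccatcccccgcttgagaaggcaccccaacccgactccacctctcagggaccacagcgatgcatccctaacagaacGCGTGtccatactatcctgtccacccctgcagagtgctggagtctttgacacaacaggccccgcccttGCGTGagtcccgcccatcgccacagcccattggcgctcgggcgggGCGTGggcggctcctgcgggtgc
Ldha: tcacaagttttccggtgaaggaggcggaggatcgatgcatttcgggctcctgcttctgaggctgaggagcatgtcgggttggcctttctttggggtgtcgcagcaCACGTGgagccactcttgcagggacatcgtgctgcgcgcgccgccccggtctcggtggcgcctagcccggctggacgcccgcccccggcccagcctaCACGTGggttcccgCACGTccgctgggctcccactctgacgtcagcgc
Ldhb: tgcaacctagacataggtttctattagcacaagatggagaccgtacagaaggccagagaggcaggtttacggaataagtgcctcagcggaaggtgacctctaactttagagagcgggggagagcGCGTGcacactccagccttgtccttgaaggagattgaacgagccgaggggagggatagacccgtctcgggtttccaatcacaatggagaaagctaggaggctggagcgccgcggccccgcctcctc
These windows lie at chr10:78009808-78010057 on the minus strand for Pfkl, chr15:98092339-98092588 on the plus strand for Pfkm, chr13:6648772-6649021 on the minus strand for Pfkp, chr7:46845554-46845803 on the plus strand for Ldha and chr6:142507958-142508207 on the minus strand for Ldhb. In the annotation used for the coordinates below, the Ldha and Pfkl windows lie inside the gene span, the Pfkp window overlaps its edge, and the Pfkm and Ldhb windows lie just upstream. Ldha held 3 capitalised stretches and Pfkp 3, against 1 in Pfkl, 1 in Pfkm and 1 in Ldhb. Of the 10 members, 7 had at least 1 match in this window, and 38.6% of 27025 promoters of the same length did. A match is a description of letters and not evidence that a factor binds.

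Phosphofructokinase was the step with a called isoform ratio among the 6 pairs compared. Pfkl was the leading form in Itga6hi CD80pos and Pfkp in Itga6low CD80neg. A different mix of cells in the libraries and a change within carcinoma cells cannot be told apart here. Pfkl (ENSMUSG00000020277, chromosome 10, 77986947 to 78010083, minus strand, GRCm38), the liver-type subunit, stood at 200.06 and 179 TPM in Itga6hi CD80pos and at 9.61 and 19.6 TPM in Itga6low CD80neg. Both Itga6hi CD80pos libraries were far above both others, and Pfkl had the highest fold change of the 10 genes. Pfkp (ENSMUSG00000021196, chromosome 13, 6579768 to 6648777, minus strand), the platelet-type subunit, stood at 122 and 113 TPM versus 15.9 and 24.0 TPM. Pfkm (ENSMUSG00000033065, chromosome 15, 98092589 to 98132451, plus strand), the muscle-type subunit, stood at 12.7 and 7.86 TPM versus 5.74 and 3.27 TPM. Its groups came close to each other, and without haemoglobin genes they overlapped, at 12.7 and 7.86 TPM versus 19.7 and 6.58 TPM.

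As a share of the summed TPM of the 3 subunits, Pfkl made up 59.7% and 59.6% in Itga6hi CD80pos and 30.8% and 41.8% in Itga6low CD80neg. Pfkp made up 36.5% and 37.7% against 50.8% and 51.2%. Pfkm made up 3.78% and 2.62% against 18.4% and 6.97%. For each of these shares the groups did not overlap, and the Itga6hi CD80pos libraries lay close together while Pfkl and Pfkm varied between the Itga6low CD80neg libraries.

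The Pfkl to Pfkp ratio was 1.64 and 1.58 in Itga6hi CD80pos and 0.606 and 0.817 in Itga6low CD80neg, so it lay above 1 in every library of the first group and under 1 in every library of the second. The means were 1.61 ± 0.0405 and 0.711 ± 0.149 (SD, n = 2). In a limma fit of every gene's log2 ratio to Pfkp, the difference was 1.15 ± 0.25 (SE, adjusted p = 0.0148, unadjusted p = 0.00499). The fit called 7811 of 13473 genes in either direction, and the adjusted p depends on that number. Higher relative to Pfkp were 1.26% of all genes, while 8.47% did not overlap in that direction. Without Itga6hi CD80pos replicate 1 the difference was 1.13, and without its replicate 2 it was 1.18. The ratio was not called in these fits, which take their spread within groups from the Itga6low CD80neg libraries alone. Without Itga6low CD80neg replicate 1 the difference was 0.96, and without its replicate 2 it was 1.35. With 1 library left in a group, the presence or lack of a call cannot be weighed. The call held when the 4 other scalings were used in turn (adjusted p of 0.0200 to 0.0259).

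The Pfkl to Pfkm ratio was 15.8 and 22.8 against 1.67 and 5.998, and the libraries of the 2 groups did not overlap (28.3% of all genes did not, in that direction). The limma difference of 2.65 ± 0.98 (SE) on the log2 scale missed the threshold (adjusted p = 0.0522, unadjusted p = 0.00713). In that fit 2.69% of genes were called higher relative to Pfkm, and 1821 of 13473 in either direction. The unadjusted p was near the 0.00499 of Pfkl to Pfkp, whose fit called 7811 genes. The Pfkl to Pfkm difference passed in 5 of 16 alternative limma fits, among them quantile scaling, at 2.44 and adjusted p = 0.0397. It did not pass under median of ratios (adjusted p = 0.0822) or without haemoglobin genes (0.0907). Nor did it pass without mitochondrial, ribosomal protein, haemoglobin and keratin genes (0.0879). Without Itga6low CD80neg replicate 1 the difference was 1.84, and without replicate 2 it was 3.46. Without Itga6hi CD80pos replicate 1 it was 2.88, and without replicate 2 it was 2.42. The Pfkp to Pfkm ratio was 9.65 and 14.4 against 2.76 and 7.35, a log2 difference of 1.495 ± 0.98 (SE, adjusted p = 0.406, 95% interval -0.42 to 3.41). In the fits to Pfkm the spread was set by the trend over all genes, since the estimated prior degrees of freedom were infinite. Every row of such a fit holds the same Pfkm values, so the trend carries the spread of Pfkm itself in 4 libraries. The rows are not independent, yet the p-values and the interval take the spread as known.

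Most skeletal muscle markers tested were lower in Itga6hi CD80pos, as was the Pfkm share. Of 5 tested muscle markers 4 were lower in Itga6hi CD80pos (9.48% of all genes were). The 7 listed summed to 6.37 and 11.5 TPM versus 107 and 49.6 TPM. Most of the sum in Itga6hi CD80pos was Mylpf, at 5.88 and 10.3 TPM versus 16.5 and 10.9 TPM, which was not called (limma, adjusted p = 0.159). Between the Itga6hi CD80pos libraries the sum rose while the Pfkm share fell, from 3.78% to 2.62%. The muscle actin Acta1 stood at 0.0302 and 0 TPM versus 40.2 and 13.8 TPM. The Itga6low CD80neg library with more Acta1, replicate 1, was the one with the higher Pfkm share. It also had the larger haemoglobin part (70.9% against 50.4%) and the larger fibroblast marker sum (8586 against 5274 TPM). With 2 libraries these cannot be told apart, and the part of muscle RNA in that share was not tested.

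**Figure D1:**
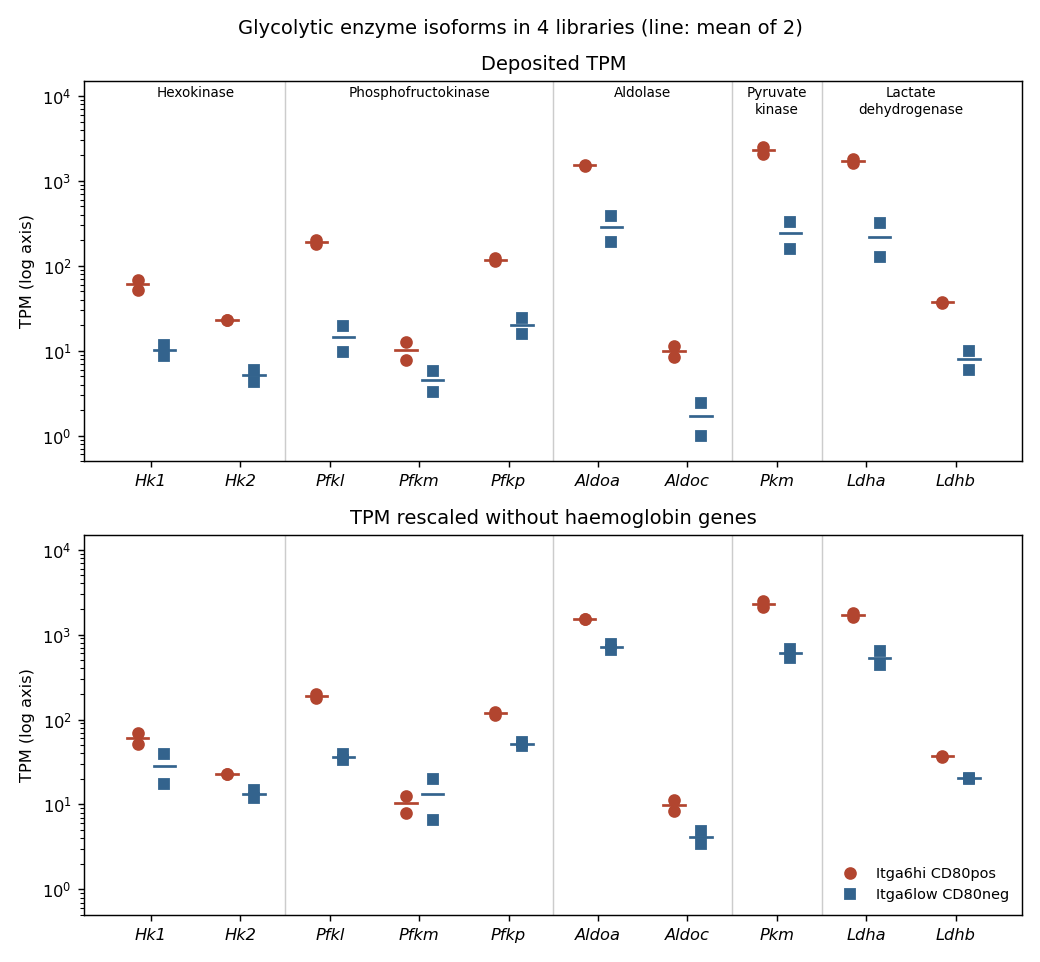
TPM of the 10 isoforms on a log axis, as deposited (upper panel) and rescaled without haemoglobin genes (lower panel). Points are libraries and lines are means of 2. Every Itga6hi CD80pos library lies above both Itga6low CD80neg libraries in the upper panel, and Pfkm overlaps in the lower one.

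**Figure D2:**
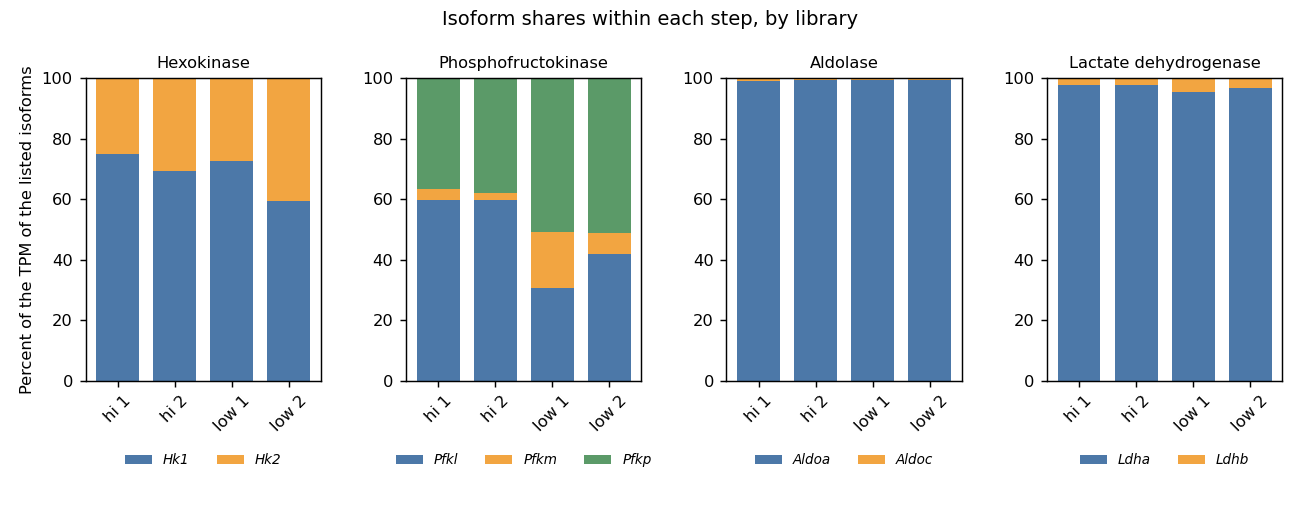
Percent of the summed TPM of the listed isoforms of each step, as 1 bar for each library (hi for Itga6hi CD80pos, low for Itga6low CD80neg). The Pfkl part falls from 59.7% and 59.6% to 30.8% and 41.8%, whereas Aldoa makes up over 99% of aldolase in all 4 bars.

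Lactate dehydrogenase was almost all Ldha in both groups, with a smaller Ldhb part in Itga6hi CD80pos. Ldha (ENSMUSG00000063229, chromosome 7, 46841475 to 46855627, plus strand), the muscle-type subunit, stood at 1812 and 1604 TPM versus 126 and 317 TPM. Ldhb (ENSMUSG00000030246, chromosome 6, 142490249 to 142507957, minus strand), the heart-type subunit, stood at 37.7 and 36.4 TPM versus 5.98 and 9.88 TPM. For both genes the Itga6hi CD80pos libraries were the higher ones. Ldhb made up 2.04% and 2.22% of the pair in Itga6hi CD80pos and 4.53% and 3.03% in Itga6low CD80neg.

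The Ldha to Ldhb ratio was 48.1 and 44.0 against 21.1 and 32.1, without overlap of the groups, as for 12.9% of all genes relative to Ldhb. The log2 difference of 0.96 ± 0.37 (SE) did not pass in limma (adjusted p = 0.0958, unadjusted p = 0.0450, 95% interval 0.03 to 1.89), with 2.07% of genes called higher in that fit. It passed in 3 of 16 alternative limma fits. Without Itga6low CD80neg replicate 1 the difference was 0.62, and without replicate 2 it was 1.30. The testis form Ldhc and its relative Ldhal6b reached at most 0.107 TPM in any library, from Ldhc.

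Hexokinase was led by Hk1 in every library, and the balance with Hk2 did not separate the groups. Hk1 (ENSMUSG00000037012, chromosome 10, 62268855 to 62379908, minus strand) was at 68.7 and 52.1 TPM versus 11.5 and 8.68 TPM. Hk2 (ENSMUSG00000000628, chromosome 6, 82725025 to 82774454, minus strand) was at 23.0 and 22.8 TPM versus 4.32 and 5.90 TPM. Both genes were higher in both Itga6hi CD80pos libraries.

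The Hk2 to Hk1 ratio was 0.335 and 0.438 in Itga6hi CD80pos and 0.374 and 0.680 in Itga6low CD80neg, and the groups overlapped. The log2 difference was -0.48 ± 0.57 (SE, adjusted p = 0.496), with a 95% interval from -1.62 to 0.65, which leaves room for a change in either direction. Background in that fit was 0.831% of genes higher and 46.6% lower relative to Hk1. Hk3, a hexokinase of myeloid cells, was listed at 0 in both Itga6hi CD80pos libraries and stood at 0.0897 and 1.04 TPM in Itga6low CD80neg. The myeloid genes Ptprc, at 0.0659 and 0.0400 TPM versus 1.06 and 2.69 TPM, and Lyz2, at 0.135 and 0 TPM versus 4.78 and 2.33 TPM, were lower in Itga6hi CD80pos too. They were 2 of 3 myeloid markers tested (9.48% of all genes were lower). The 7 listed summed to 460 and 331 TPM versus 227 and 1006 TPM, most of it from S100a8, which keratinocytes also make. Hkdc1 reached 0.0131 TPM at most.

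Of the 2 aldolases described here, Aldoa made up nearly all. Aldoa (ENSMUSG00000030695, chromosome 7, 126795234 to 126800751, minus strand) was at 1530 and 1510.0 TPM versus 190 and 384 TPM. Aldoc (ENSMUSG00000017390, chromosome 11, 78322968 to 78327781, plus strand) was at 11.4 and 8.44 TPM versus 0.989 and 2.40 TPM. The Itga6hi CD80pos libraries were higher for both genes, and Aldoc made up 0.741% and 0.556% of the pair against 0.519% and 0.623%.

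The Aldoa to Aldoc ratio was 134 and 179 against 192 and 160, with overlapping groups and a lower mean in Itga6hi CD80pos (156 ± 31.8 against 176 ± 22.7, SD, n = 2). With the pseudocount of 1 the log2 difference was 0.43 ± 0.45 (SE, adjusted p = 0.490, 95% interval -0.53 to 1.39), and it turned to -0.093 with a pseudocount of 0.1 and to -0.13 under quantile scaling, so no direction is given for this pair. Relative to Aldoc, 1.94% of genes were called higher. A second row with the symbol Aldoa reached 1.04 TPM, and 8 pseudogene and retrogene rows of the members reached 0.267 TPM at most. The authors worked with kallisto 0.44.0, and nothing further on reads shared with such copies is given in the sources used here.

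**Figure D3:**
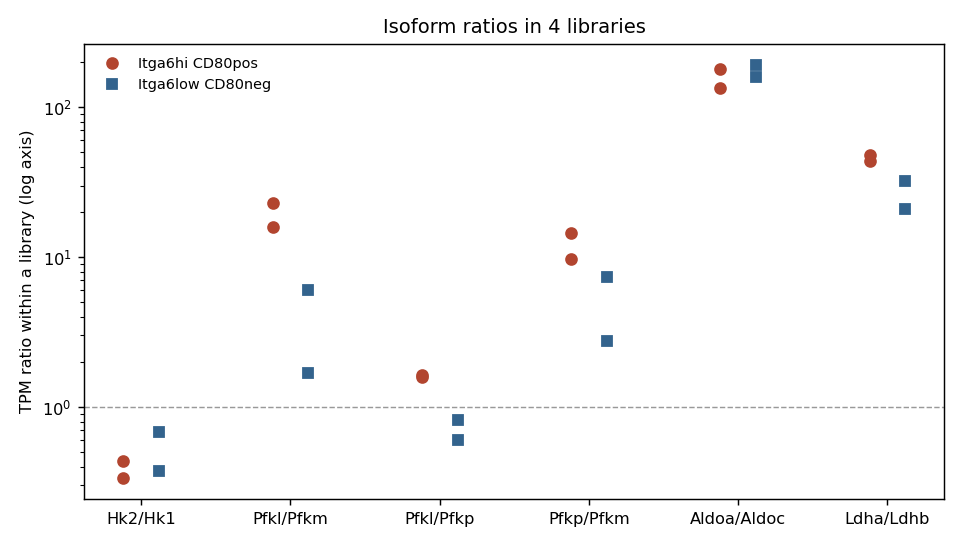
TPM ratios of isoform pairs within each library on a log axis, with the dashed line at equal levels. The Pfkl to Pfkp ratio lies above 1 in both Itga6hi CD80pos libraries and under 1 in both others, whereas Hk2 to Hk1 and Aldoa to Aldoc overlap between the groups.

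All listed pyruvate kinase TPM came from Pkm, since Pklr, the liver and red cell gene, was listed at 0 in all 4 libraries. Depth and any filter are unknown, so a listed 0 does not show that Pklr was absent. Pkm (ENSMUSG00000032294, chromosome 9, 59656368 to 59679375, plus strand) was at 2498 and 2095 TPM in Itga6hi CD80pos and at 156 and 332 TPM in Itga6low CD80neg. It was the most abundant of the 10 genes in both Itga6hi CD80pos libraries. The PKM1 and PKM2 forms are spliced from this 1 gene, and values per gene cannot tell them apart.

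On deposited TPM, 9 of the 10 genes were called higher in Itga6hi CD80pos, beside 57.0% of all genes, and 0 were lower. The groups did not overlap for any of the 10, as for 73.5% of all genes in that direction. The log2 fold changes of the called genes ran from 1.98 ± 0.30 (SE, adjusted p = 0.00671) for Hk2 to 3.69 ± 0.44 (SE, adjusted p = 0.00488) for Pfkl. Pfkm was the exception, at 1.04 ± 0.39 (SE, adjusted p = 0.0611), under the median of 1.27 over all genes. The median over the 10 was 2.48. With single libraries removed, Pfkm stayed the lowest of the 10 and Pfkl the highest. Their log2 fold changes were 0.725 and 3.61 without Itga6hi CD80pos replicate 1, and 1.35 and 3.77 without its replicate 2. They were 1.37 and 3.21 without Itga6low CD80neg replicate 1, and 0.708 and 4.17 without its replicate 2. Each of these fits leaves 1 library in a group and takes its spread within groups from the other group. Calls lost in the first 2 fits and kept in the last 2 therefore cannot be weighed for these genes.

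Across the deposited scale and 4 other scalings, 3 of the 10 were called higher each time, beside 6.46% of all tested genes, and these were Pfkl, Pfkp and Pkm. Pfkl kept a log2 fold change of at least 2.35 and Pkm of at least 1.82, while Pfkp fell to as little as 1.17. Singly, the other scalings called 3 genes by median of ratios (10.2% of all genes), 5 by quantile scaling (10.7%), 4 without haemoglobin genes (7.71%) and 5 without mitochondrial, ribosomal protein, haemoglobin and keratin genes (13.9%). Ldha passed in 4 of the 5, with the median-of-ratios scaling as the exception (adjusted p = 0.0541), and Aldoa and Ldhb passed in 2 each. Hk1, Hk2 and Aldoc passed on deposited TPM only, with adjusted p up to 0.141, 0.139 and 0.122 elsewhere. Pfkm lay between -0.19 and 1.04 and changed sign with the scaling.

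Rescaled without haemoglobin genes, Pfkl stood at 200.1 and 179 TPM versus 33.0 and 39.5 TPM, a ratio of means of 5.23. Pkm stood at 2498 and 2096 TPM versus 536 and 669 TPM, a ratio of 3.81. Ldha stood at 1812 and 1604 TPM versus 433 and 638 TPM, a ratio of 3.19. These 3 had the highest ratios of the 10 genes on this scale, and for each of them the ratio between the Itga6low CD80neg libraries was nearer to 1 than on deposited TPM. For Hk1 and Pfkm that ratio was further from 1. Hk1 stood at 39.7 and 17.5 TPM in these libraries (11.5 and 8.68 TPM as deposited), and Pfkm at 19.7 and 6.58 TPM (5.74 and 3.27 TPM as deposited). Summed over isoforms, the ratio of means without haemoglobin genes was 1.99 for hexokinase, 3.15 for phosphofructokinase, 2.13 for aldolase, 3.81 for pyruvate kinase and 3.14 for lactate dehydrogenase.

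**Figure D4:**
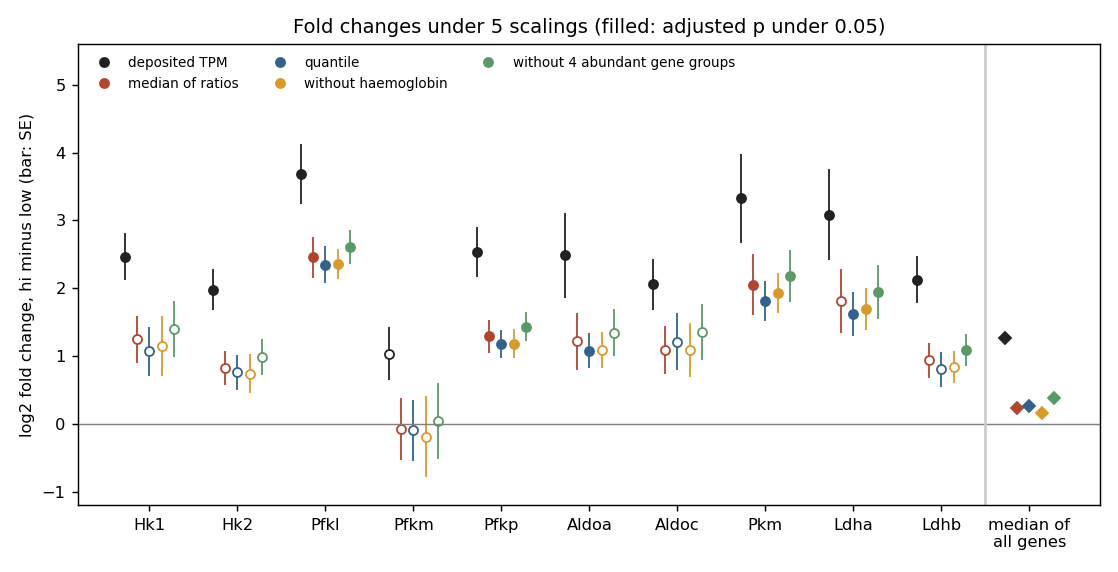
Log2 fold changes of the 10 genes (points, with SE as bars) on deposited TPM and under 4 other scalings, with filled points at adjusted p under 0.05. Diamonds give the median of all tested genes, which is 1.27 on deposited TPM and lies between 0.16 and 0.39 under the others, and Pfkl, Pfkp and Pkm are filled throughout.

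The order of levels, which TPM allow since they are per length, also differed. In Itga6hi CD80pos it ran Pkm, Ldha, Aldoa, Pfkl, Pfkp, Hk1, Ldhb, Hk2, Pfkm and Aldoc, and each gene stood apart from its neighbour in both libraries except Pfkm and Aldoc at the end. In Itga6low CD80neg it ran Aldoa, Pkm, Ldha, Pfkp, Pfkl, Hk1, Ldhb, Hk2, Pfkm and Aldoc. There the libraries of neighbours overlapped except between Ldha and Pfkp, Ldhb and Hk2, and Pfkm and Aldoc. Within each Itga6low CD80neg library taken by itself, Aldoa, Pkm, Ldha and Pfkp kept this order. The order of Pfkl and Hk1, of Hk1 and Ldhb, and of Hk2 and Pfkm differed between the libraries.

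The genes closest to single members over the 4 libraries were found from log2(TPM + 1) centred on each gene's mean, by the smallest root mean square difference, which says little with 4 libraries in 2 groups. For Ldha the nearest was Hif1a, at a difference of 0.0304, which stood at 256 and 231 TPM versus 16.3 and 43.9 TPM. For Pkm it was Tfrc, at 0.0228, and for Pfkl it was Impa2, at 0.0543, the largest of the 10 distances. For Ldhb it was Prim2, at 0.00952, the smallest. For Hk1 it was Vac14, for Hk2 Cnot7, for Pfkp Yars2, for Pfkm Slc12a9, for Aldoa Psmg1 and for Aldoc Polr1e, at 0.0153 to 0.0434.

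Among the enzymes of the remaining steps, the genes called higher on deposited TPM were the general forms. Of 11 tested genes 6 were higher, near the 57.0% of all genes called higher. Of the 11, 2 were lower (9.48% of all genes were), and the median log2 fold change was 2.73. Gapdh, which oxidises the triose phosphate, stood at 3209 and 3078 TPM versus 221 and 532 TPM. Eno1, the general enolase, stood at 1601 and 1486 TPM versus 113 and 271 TPM. Gpi1, Pgam1 and Eno1 were higher under all 5 scalings (6.46% of all genes were), while Gapdh, Tpi1 and Pgk1 were not. Gpi1, the phosphoglucose isomerase, stood at 444 and 466 TPM versus 50.3 and 88.5 TPM, and Pgam1, the general phosphoglycerate mutase, at 725 and 712 TPM versus 47.3 and 126 TPM. Tpi1, the triose phosphate isomerase, stood at 835 and 741 TPM versus 67.2 and 207 TPM. Pgk1, the phosphoglycerate kinase, was higher as well, at 486 and 564 TPM versus 40.9 and 133 TPM.

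Of the other tested forms of these steps, Eno2 was called lower, and Eno3, Pgam2 and Gapdhs were not called. Gapdhs, the other gene of the Gapdh step, leaned higher in Itga6hi CD80pos, at 5.68 and 3.20 TPM versus 0 and 2.05 TPM. Its log2 fold change was 1.60 ± 0.59 (SE, adjusted p = 0.0586). Eno2, the neuronal enolase, was lower in Itga6hi CD80pos under all 5 scalings, as 8.30% of all genes were, at 0.287 and 0.404 TPM versus 5.93 and 3.01 TPM (log2 fold change -1.97 ± 0.36, SE, adjusted p = 0.00872). Eno3, the muscle enolase, stood at 2.43 and 2.71 TPM versus 8.34 and 3.80 TPM (adjusted p = 0.0923), and Pgam2, the muscle mutase, at 3.11 and 3.78 TPM versus 5.45 and 2.71 TPM (adjusted p = 0.747). Eno1 thus made up 99.8% and 99.8% of enolase in Itga6hi CD80pos and 88.8% and 97.5% in Itga6low CD80neg, and Pgam1 made up 99.6% and 99.5% of the mutases against 89.7% and 97.9%. Replicate 1 of Itga6low CD80neg, which had the most Acta1 but also the largest haemoglobin part and fibroblast marker sum, had the lowest of both shares.

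Bpgm, the enzyme that makes 2,3-bisphosphoglycerate in red cells, went the other way, at 13.4 and 7.69 TPM versus 730 and 427 TPM. Its log2 fold change was -5.64 ± 0.48 (SE, adjusted p = 0.00315), lower under all 5 scalings. All 7 tested red blood cell markers were lower as well (9.48% of all genes were), with summed TPM of 185 and 62.5 against 711095 and 504900.2. Their part in the levels of the isoforms themselves was not tested.

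Among genes that set the flow through phosphofructokinase, of 6 tested, 4 were higher on deposited TPM (57.0% of all genes were) and 0 were lower, with a median log2 fold change of 1.41, near the 1.27 of all genes, and 0 were called under all scalings. Pfkfb3, which makes the activator fructose 2,6-bisphosphate, stood at 10.8 and 5.56 TPM versus 2.13 and 2.32 TPM. Tigar, which breaks that activator down, stood at 9.80 and 8.65 TPM versus 1.68 and 1.87 TPM. Pfkfb2, at 6.03 and 5.16 TPM versus 2.85 and 0.702 TPM, was higher, and Pfkfb4 stood at 3.91 and 3.45 TPM versus 2.56 and 3.04 TPM (adjusted p = 0.367).

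Pyruvate entry to mitochondria gave 7 higher and 0 lower of 11 tested genes, near the 57.0% of all genes called higher. The median log2 fold change was 1.51, beside 1.27 over all genes, and again 0 were called under all scalings. Pdk1, a kinase that switches pyruvate dehydrogenase off, had the highest fold change of this list, at 37.0 and 50.2 TPM versus 3.22 and 7.37 TPM (log2 fold change 2.89 ± 0.44, SE, adjusted p = 0.00658). The dehydrogenase subunits Pdha1, at 85.1 and 82.5 TPM versus 23.8 and 32.8 TPM, and Pdhb, at 84.1 and 79.1 TPM versus 15.7 and 29.6 TPM, were higher. Dld, the shared dehydrogenase subunit, was higher at 46.0 and 43.5 TPM versus 9.22 and 20.3 TPM, and Mpc2, a subunit of the pyruvate carrier, stood at 64.0 and 47.7 TPM versus 15.7 and 33.2 TPM (adjusted p = 0.0597).

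Of 6 regulators of these enzymes, 6 were higher on deposited TPM, as were 57.0% of all genes, with a median log2 fold change of 2.19. Hif1a and Ptbp1 were higher under all 5 scalings, as were 6.46% of all genes. Hif1a encodes the hypoxia-inducible factor that acts on many glycolytic genes, and its log2 fold change was 3.13 ± 0.55 (SE, adjusted p = 0.00828). Ptbp1, a splicing factor that favours the PKM2 form, stood at 364 and 308 TPM versus 46.4 and 45.4 TPM. Its partners Hnrnpa1 and Hnrnpa2b1 stood at 462 and 395 TPM versus 64.2 and 115 TPM and at 682 and 539 TPM versus 118 and 174 TPM, and Srsf3, another splicing factor, at 286 and 247 TPM versus 44.5 and 84.9 TPM.

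**Figure D5:**
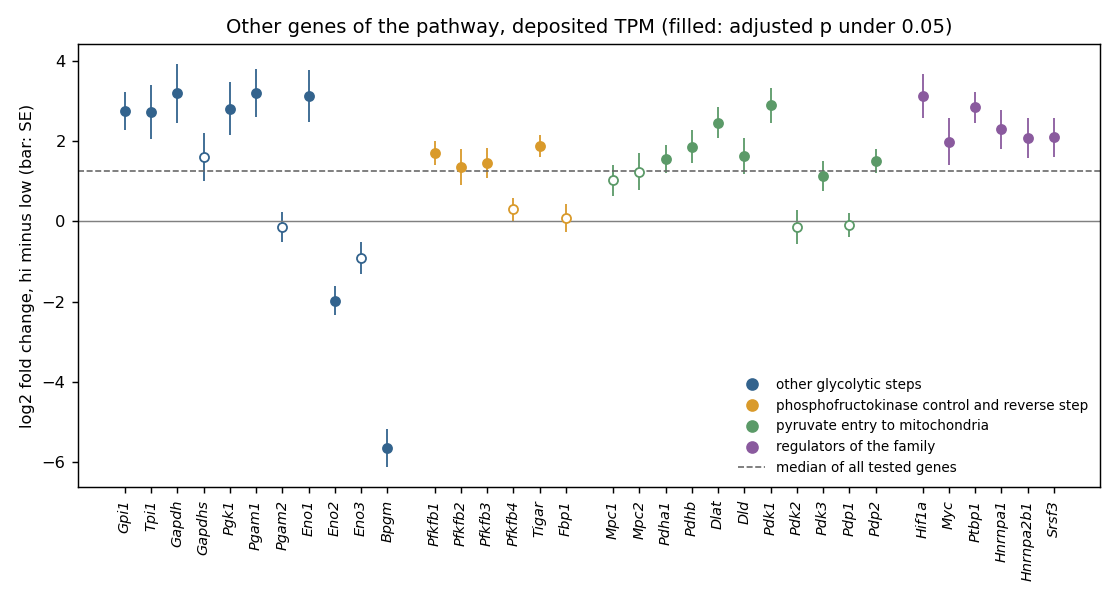
Log2 fold changes (points, with SE as bars) of the tested genes of the pathway outside the 10 members, on deposited TPM, with filled points at adjusted p under 0.05. The dashed line is the median of all tested genes at 1.27, and Bpgm lies lowest at -5.64.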

How the data were processed

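The deposited values are TPM per gene for 4 libraries of polyA RNA. The authors worked with kallisto 0.44.0 and with the build mm10 (per the submitters' processing notes); the annotation, the summing of transcripts to genes and any filter are not given in the sources used here. The depth of the libraries cannot be read from TPM and is unknown. Coordinates are those of GENCODE M21 on GRCm38, matched by identifier. Genes that reached 1 TPM in 2 or more libraries were tested as log2(TPM + 1) with limma 3.58.1 in R 4.3.3 (lmFit, eBayes with a trend), two-sided, with Benjamini-Hochberg adjustment over all 13474 genes. A fold change on this scale understates that of low genes. For ratios, log2(TPM + 1) of the denominator was subtracted from every gene and the fit repeated, adjusted over all genes of that fit, with 6 pairs compared. All rows of such a fit share the spread of the denominator. With 2 libraries a group, the smallest p of an exact permutation test is 0.333. Functions were tested on simulated data with independent noise for each gene, which does not check the calls made here. Other scalings were median of ratios, quantile, without haemoglobin genes, and without mitochondrial, ribosomal protein, haemoglobin and keratin genes. All 10 members are named; from each other list, genes called under all scalings and the 4 of highest mean TPM are named, and so is the gene nearest to each member. Pgk1, Gapdhs, Eno3, Pgam2, Pdk1 and the marker genes given singly were picked after their values were seen. The members and lists were chosen with earlier results of these data known. No protein sequences were used here. One red cell marker, Ahsp, was not matched by symbol. Some genes of the lists are not reported here.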

Additional observations from a re-analysis of the deposited data

How the results depend on the processing

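The Pfkl to Pfkp difference passed in 14 of the 16 alternative limma fits, with log2 differences from 0.96 to 1.35 when each library was left out in turn, and gave 1.19 in an exact permutation test (p = 0.333, the smallest that test can give). The Pfkl to Pfkm difference, not called, passed in 5 of the 16. These included a pseudocount of 5 (2.68), no trend (2.65), quantile scaling (2.44) and the replicate number as a block (2.65, adjusted p = 0.000300). The block fit had 1 residual degree of freedom and took the spread as known, since its prior degrees of freedom were infinite. The Pfkl to Pfkm difference ran from 1.84 to 3.46 when each library was left out. The Ldha to Ldhb difference, also not called, passed in 3 of the 16. These included a pseudocount of 5 (1.34) and no filter (0.96), and the difference ran from 0.62 to 1.30 when each library was left out. Aldoa to Aldoc turned to -0.093 with a pseudocount of 0.1 and to -0.18 with none, and to -0.13 under quantile scaling and -0.011 without the 4 gene groups. Fitting the ratios under the 4 other scalings was chosen after seeing the data. Leaving out each library gave -0.86 to -0.11 for Hk2 to Hk1, 0.88 to 2.11 for Pfkp to Pfkm and 0.24 to 0.62 for Aldoa to Aldoc. The Pfkm fold change was -0.071 under median of ratios, -0.095 under quantile scaling and -0.19 without haemoglobin genes.

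Over all genes, 7686 higher calls became 1372 under median of ratios, 1448 under quantile scaling, 1039 without haemoglobin genes, 1850 without the 4 gene groups and 4564 without a filter; 1277 lower calls became 613 at a mean of at least 5 TPM. Leaving out single libraries gave 0 to 8227 higher and 0 to 1237 lower calls; at 0, without Itga6hi CD80pos replicate 1, 4442 and 1033 had an unadjusted p under 0.05 in limma. Same-numbered replicates had correlated deviations (Pearson r = 0.109 across 13474 genes) but share only a number; the block gave 8044 and 1452 calls. Depth is unknown, so detection limits were not set.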
